A study of Mus musculus with 10 samples.

Results

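Cluster 13 is a small group of neurons of the paraventricular hypothalamus (PVH) that carries RNA for *Gad2*, an enzyme of GABA synthesis, and for *Npy1r*, a receptor for neuropeptide Y. It was set beside cluster 10, the cluster with the highest *Crh* level, since *Crh* was found in both. The members are the cells that the authors' cell table numbers 13, which are 16 of 706 cells, and the comparison is with the 62 cells numbered 10. Cluster 13 had 3 cells on plate AL5, 3 on AL6, 2 on JM5, 4 on JM6, 2 on JM7 and 2 on JM8, and none on the 4 plates whose names begin with Q. Both clusters had at least 2 cells on 4 plates, AL5, JM6, JM7 and JM8, with 11 cells of cluster 13 and 21 of cluster 10, and the clusters were compared within those plates. The other 41 cells of cluster 10 came from the Q plates.

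All 10 plates held a single condition. The cells were picked by hand from brain slices of male mice over 7 weeks old, the offspring of Agrp-IRES-Cre and Ai9 mice, in which Cre from the *Agrp* locus turns on the red protein tdTomato. Slices had been held for 50 minutes with pronase and the activity blockers TTX, APV and DNQX. The labels call the picked cells tdTomato-positive, whereas the study's methods use the red axons of AGRP neurons to find the edge of the PVH, and *Agrp* was detected in 1 of 16 cells of cluster 13 and 0 of 62 of cluster 10, which allows a share of up to 4.84%. No source used here ties plates or cells to animals, so a p-value below measures the spread between plates, which may be technical.

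The PVH joins endocrine, autonomic and feeding circuits. Its *Crh* neurons release corticotropin-releasing hormone, which starts the pituitary and adrenal stress response, and glucocorticoids feed back on them through the receptor encoded by *Nr3c1*. PVH neurons as a rule are glutamatergic, with the vesicular transporter encoded by *Slc17a6*, while a neuron that releases GABA usually needs a GABA-making enzyme (*Gad1*, *Gad2*) and the vesicular transporter encoded by *Slc32a1*. Neuropeptide Y reaches the PVH from the arcuate nucleus, and its Y1 receptor is an inhibitory receptor known for its part in appetite.

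Each cell was read by counts of unique molecular identifiers (UMIs), short random tags put on cDNA before amplification. Cells of cluster 13 had 53658 to 154742 UMIs, with a median of 74689 and 5226.5 genes detected. The 21 cells of cluster 10 on the same plates had 50816 to 93120, with a median of 63337, and its 41 cells on the Q plates had a median of 149001. The ERCC spike-ins, RNAs added in known amounts, gave 5.04 to 10.9 UMIs per captured molecule on the 4 shared plates and 23.0 to 32.5 on the Q plates, so the intervals and limits on counts below are narrower than molecules would give and cover counting error only.

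*Gad2* had at least 1 UMI in 15 of 16 cells of cluster 13 (93.8%, exact Clopper-Pearson 95% interval 69.8 to 99.8%) and *Npy1r* in 14 of 16 (87.5%, 61.7 to 98.4%). On the same plates *Gad2* was found in 1 of 21 cells of cluster 10 and *Npy1r* in 0 of 21, which allows up to 14.3%. In cluster 1, the largest cluster, whose cells are rich in *Oxt* RNA, the shares were 13 of 221 for *Gad2* and 4 of 221 for *Npy1r*, at a median of 183836 UMIs per cell. Both genes of the cluster's name were thus found in most of its cells, and 13 cells held both. In the GENCODE annotation of mouse build GRCm38, *Gad2* is a protein-coding gene of the plus strand at chr2:22622205-22693874, *Npy1r* one of the plus strand at chr8:66697192-66706792 and *Crh* one of the minus strand at chr3:19693401-19695396.

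*Crh* did not mark cluster 13 as evenly. It was found in 7 of its 16 cells (43.8%, 19.8 to 70.1%), against 53 of 62 cells of cluster 10 (85.5%, 74.2 to 93.1%) and 18 of 221 of cluster 1. In 4 cells, on plates AL5, JM5 and JM7, *Crh* lay between 854 and 3858 counts per 1000000 UMIs (CPM), and in the other 12 cells it lay between 0 and 214 CPM. The 500 CPM used to set these cells apart was chosen after the values were seen. Of the 4 cells, 2 had no *Npy1r* UMI, and these were the only cells of the cluster without one. *Crh*, *Gad2* and *Npy1r* were found together in 4 of 16 cells.

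The 4 cells rich in *Crh* were set beside the other 12 in the genes described below. Their median *Gad2* level was 875 CPM, with a range of 181 to 1012 CPM, against 381 CPM and a range of 0 to 877 CPM in the other 12 cells. Median *Vgf* was 654 CPM in the former and 637 CPM in the latter. Median *Cartpt* was 359 CPM and 1200.0 CPM respectively, with the 4 cells inside the range of the 12. The medians of *Bdnf* and *Npy1r* lay far apart. *Bdnf* was 913 to 2831 CPM in the 4 cells, with a median of 1480.3 CPM, against 0 to 2653 CPM and a median of 263 CPM in the 12. *Npy1r* was 0 to 90.5 CPM in the 4 cells, with a median of 10.4 CPM, against 35.7 to 450.4 CPM and a median of 91.0 CPM. The cells were grouped by *Crh* after the fact, and no test was made between them.

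**Figure D1:**
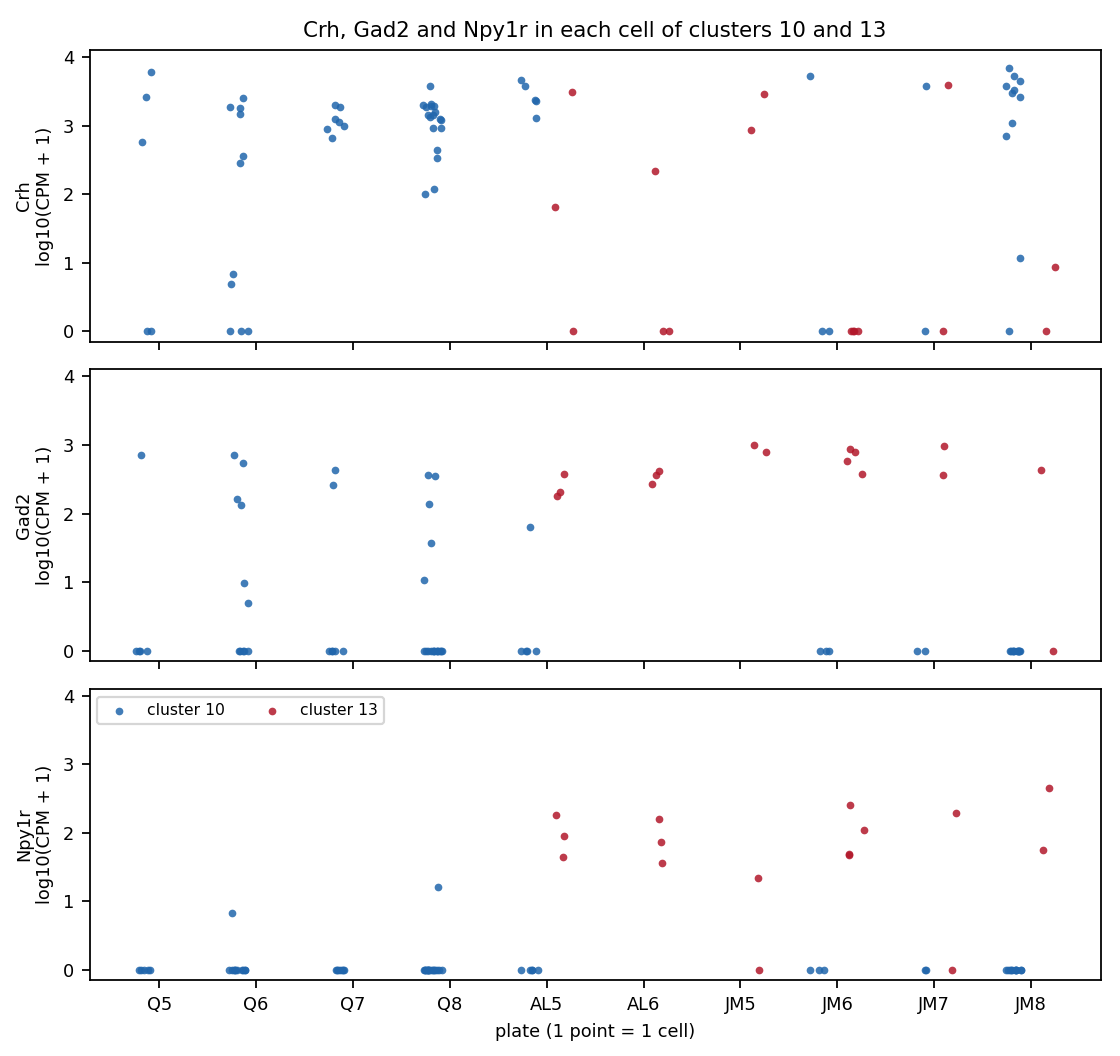
*Crh*, *Gad2* and *Npy1r* as log10(CPM + 1) in each cell of cluster 10 (blue) and cluster 13 (red), with the 10 plates along the horizontal axis and 1 point per cell. *Gad2* was above 0 in 15 of the 16 red points and in 1 of the 21 blue points on AL5, JM6, JM7 and JM8, while 14 of the 41 blue points on the Q plates were above 0.

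Summed over the cells of a cluster on a plate, *Crh* was 1312, 0, 1871 and 5.44 CPM in cluster 13 on plates AL5, JM6, JM7 and JM8. In cluster 10 it was 2914, 1517, 1861 and 2761 CPM on those plates, the order kept in all such lists that follow. Cluster 13 was about level with cluster 10 on JM7 and near 0 on JM6 and JM8, and the ranges overlapped. The fitted log2 fold change, cluster 13 over cluster 10, was -3.39 (SE 2.44, adjusted p = 0.919 by edgeR's quasi-likelihood test with Benjamini-Hochberg adjustment over the 4414 genes tested), so a difference in *Crh* was not detectable with 4 plates.

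*Gad2* was 254, 637, 659.9 and 131 CPM in cluster 13 and 11.6, 0, 0 and 0 CPM in cluster 10. The lowest plate of cluster 13 lay above the highest of cluster 10, and the fitted log2 fold change was 6.62 (SE 0.92, adjusted p = 0.00107). *Npy1r* was 109.8, 121, 99.4 and 332 CPM in cluster 13 and had no UMI in cluster 10 on any of the 4 plates. Against a floor of 3 UMIs over the 4 plates of cluster 10, *Npy1r* was at least 70.5-fold higher in cluster 13 (adjusted p = 0.0366). With 5.04 to 10.9 UMIs per captured molecule on these plates, 3 UMIs is less than 1 molecule. Folds given as at least, here and below, are therefore limits on UMIs and no lower bounds on molecules. The call for *Npy1r* was lost without plate AL5 (adjusted p = 0.0784) and without JM8 (adjusted p = 0.286), the plate with its highest value. *Gad2* and *Npy1r* name the cluster and were among the genes from which the clusters were drawn in these same cells. Their separation and p-values are thus a description and no independent evidence of a difference.

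The other genes of GABA release were not detected in either cluster. *Gad1* and *Slc32a1* had 0 UMIs in all 16 cells of cluster 13, which allows a share of up to 18.8% of cells with a UMI and sets no limit on cells that express the gene at a low level, and 0 in all 62 cells of cluster 10. In cluster 6, which lies outside the PVH, *Gad1* was found in 21 of 25 cells, at 263 ± 282 CPM over 6 plates. *Slc32a1* was found there in only 12 of 25 cells, at 21.2 ± 14.8 CPM, so its 0 in cluster 13 says less. *Slc17a6* was found in 14 of 16 cells of cluster 13, and 13 cells held both *Gad2* and *Slc17a6*. *Slc17a6* was 305, 114, 27.1 and 604 CPM in cluster 13 and 52.2, 102, 57.6 and 133 CPM in cluster 10, which overlapped (log2 fold change 1.14, SE 0.73, adjusted p = 0.845).

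Of the 4 markers of PVH identity, *Slc17a6*, *Otp*, *Sim1* and *Pou3f2*, 0 passed the test in edgeR. *Otp*, which the neurons of this nucleus need to develop, was 533 to 1328 CPM in cluster 13 and 733 to 1587 CPM in cluster 10 (log2 fold change -0.23, SE 0.28, adjusted p = 0.974). *Sim1*, another such factor, was found in 7 of 16 and 25 of 62 cells. *Pou3f2*, a factor that the neuroendocrine neurons of the PVH need, was 42.9, 10.4, 0 and 43.5 CPM in cluster 13 and 145, 80.7, 393 and 176 CPM in cluster 10. All 4 plates of cluster 13 lay below those of cluster 10, and the difference did not pass in edgeR (log2 fold change -2.95, SE 1.03, adjusted p = 0.29) and passed in DESeq2 (adjusted p = 0.00785). Of 18 markers of neurons that border the PVH, such as *Npy*, *Hcrt*, *Pmch* and the *Dlx* genes of the GABAergic forebrain, 14 had no UMI in any cell of cluster 13 and 13 had none in any cell of cluster 10, and their summed level on the shared plates was 0 to 104 CPM and 0 to 23.2 CPM.

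Across all genes, 45 of 4414 tested passed an adjusted p of 0.05 between clusters 13 and 10, which is 1.02% of those tested. Of these, 18 were higher in cluster 13 (0.408%) and 27 lower (0.612%), and all 45 went the same way on 4 of 4 plates. For 44 of them the 4 values of cluster 13 did not overlap the 4 of cluster 10, against 3.35% of all genes tested that lay wholly above and 3.81% that lay wholly below. A gene that passes a test on 4 plates will mostly agree over them, so the agreement of the called genes follows largely from their selection. The clusters were also drawn from the genes of these same cells. These counts are thus a description and are no independent evidence that there are separate clusters. The count rested on 2 plates in particular, being 24 without AL5 and 21 without JM8, and 16 of the 45 genes stayed called with each plate left out in turn.

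**Figure D2:**
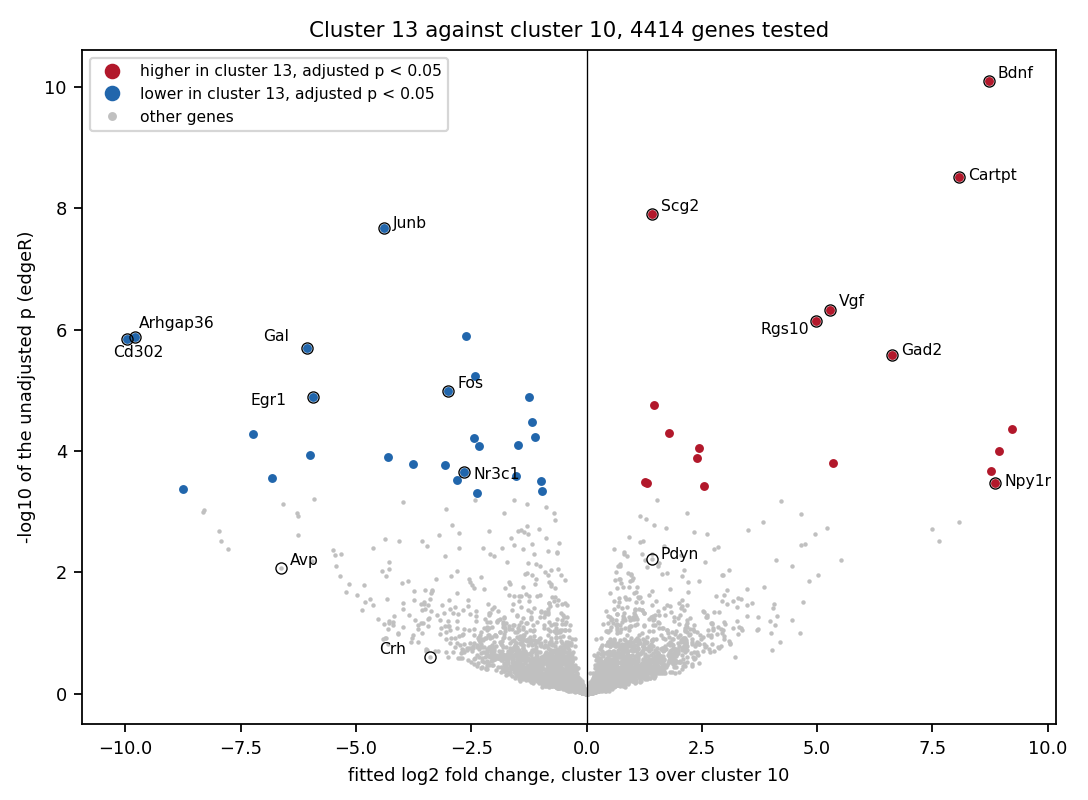
Fitted log2 fold change of cluster 13 over cluster 10 on the horizontal axis and -log10 of the unadjusted edgeR p on the vertical axis, for the 4414 genes tested on 4 plates. The 18 genes called higher in cluster 13 are red and the 27 called lower are blue, and *Crh*, *Avp* and *Pdyn* are ringed among the genes that did not pass. For the 7 called genes without a UMI in one of the clusters the fitted value depends on the prior count and is no bound.

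Genes of secreted peptides and proteins were among those called. Of 52 neuropeptides and related secreted factors in a fixed list, 16 had UMIs on enough plates to be tested, 4 were higher in cluster 13 and 1 was lower. The median log2 fold change of the 16 was 0.73, against -0.02 over all genes tested. Of all genes tested 0.408% were called higher and 0.612% lower, the shares to set beside this list and those that follow. The 4 that rose were *Bdnf*, *Cartpt*, *Vgf* and *Scg2*, and the one that fell was *Gal*.

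*Bdnf*, which encodes brain-derived neurotrophic factor, a growth factor for neurons and synapses that curbs feeding when released in the PVH, was 1272, 1077, 506 and 1823 CPM in cluster 13 and 0, 0, 0 and 6.84 CPM in cluster 10. The groups were far apart on each plate, with a fitted log2 fold change of 8.71 (SE 0.55, adjusted p = 3.52e-07). It was found in 15 of 16 cells of cluster 13. Plates AL6 and JM5, which did not enter the fit, gave 207 and 1489.9 CPM in cluster 13.

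*Cartpt*, the precursor of the CART peptides, was 809, 1699.7, 1112 and 54.4 CPM in cluster 13 and 2.90, 0, 0 and 1.37 CPM in cluster 10. JM8 was far below the other 3 plates of cluster 13 and still above every plate of cluster 10 (adjusted p = 6.78e-06). Cluster 10 held only 2 *Cartpt* UMIs on these plates against 926 in cluster 13, a ratio of 661 per UMI sequenced with a counting interval of 183 to 5470. *Bdnf* and *Cartpt* were found together in 14 of 16 cells of cluster 13.

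*Vgf*, a granule protein that is cut into several neuropeptides, was 672, 1066, 750.3 and 789 CPM in cluster 13 and 14.5, 0, 9.59 and 65.6 CPM in cluster 10 (log2 fold change 5.28, SE 0.63, adjusted p = 0.000413). *Scg2*, the granin that gives secretoneurin, was high in both, at 5659.6, 7768, 8054 and 12154 CPM in cluster 13 and 2004, 3066, 3127 and 4289.6 CPM in cluster 10. Its difference was smaller than that of *Vgf*, with a log2 fold change of 1.42 and an SE of 0.13 (adjusted p = 1.82e-05).

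*Gal*, the precursor of galanin, was 0, 65.8, 0 and 0 CPM in cluster 13 and 478, 871, 729 and 533 CPM in cluster 10 (log2 fold change -6.06, SE 0.82, adjusted p = 0.000887). It was found in 2 of 16 cells of cluster 13 and 53 of 62 of cluster 10. In cluster 13 all of its UMIs on the shared plates lay on JM6.

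*Avp*, the vasopressin precursor that *Crh* neurons can also make, was 107, 24.2, 36.2 and 16.3 CPM in cluster 13 and 1389, 8364, 11847 and 1870.1 CPM in cluster 10. The groups did not overlap, and the difference did not pass in edgeR (log2 fold change -6.62, SE 1.22, adjusted p = 0.253). It passed in DESeq2 (adjusted p = 1.17e-10), in limma (4.77e-58), without AL5 (8.59e-14), with no plate block (0.0303) and with all PVH clusters in one fit (0.00042). These values lie many orders of magnitude apart on largely the same few plates. Their size is thus no measure of how certain the difference is. *Pdyn*, the prodynorphin gene, was 445, 447, 371 and 468 CPM in cluster 13 and 159, 209.8, 249 and 82.0 CPM in cluster 10, which also did not overlap and did not pass (log2 fold change 1.41, SE 0.44, adjusted p = 0.204), although DESeq2 called it (adjusted p = 0.0171). *Penk*, the enkephalin precursor, had no UMI in any cell of cluster 13. In cluster 10 it was found in 1 of 21 cells on these plates, at 0, 0, 0 and 27.3 CPM, and it was not tested. On the Q plates *Penk* was found in 13 of 41 cells of cluster 10.

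*Trh* and *Sst* were uneven within cluster 13. *Trh*, which encodes thyrotropin-releasing hormone, was found in 5 of 16 cells, with 437, 125, 0 and 0 CPM by plate. *Sst*, the somatostatin gene, was found in 7 of 16 cells, with 2.68, 270.0, 362 and 54.4 CPM. *Trh* had 199 UMIs and *Sst* 129 over these plates in cluster 13, against 2 and 6 in cluster 10. Neither reached the count filter on enough plates, so neither was tested against cluster 10. The low counts in cluster 10 held for the shared plates only. On the Q plates *Sst* was found in 39 of 41 cells of cluster 10, with a median of 19.5 CPM and up to 4345 CPM. *Trh* was found there in 9 of 41, at up to 6473 CPM. Over all plates with at least 2 cells, *Sst* averaged 184 ± 406 CPM in cluster 10 and 144 ± 150 CPM in cluster 13.

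Genes of peptide processing and dense-core vesicles were called in both directions. Of 50 genes for peptide processing and dense-core vesicles, 30 were tested, 2 were higher in cluster 13 (*Scg2* and *Vgf*, above) and 2 were lower, with a median log2 fold change of 0.31. *Pcsk1n*, which encodes proSAAS, an inhibitor of prohormone convertase 1, was 1653, 907, 1509.5 and 1409.8 CPM in cluster 13 and 3569, 3410.3, 2638 and 3135 CPM in cluster 10 (log2 fold change -1.25, SE 0.20, adjusted p = 0.00385). *Cpe*, the carboxypeptidase that trims peptide ends, was 814, 762, 732 and 773 CPM in cluster 13 and 1285, 1614, 1612 and 1639 CPM in cluster 10. The plates of each cluster lay close together for *Cpe*, and the log2 fold change was -0.996 (SE 0.22, adjusted p = 0.0366), a call that was lost with any of the 4 plates left out (adjusted p up to 0.186).

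Immediate early genes, which neurons switch on within minutes of strong activity or of stress to the cell, were lower in cluster 13. Of 30 in the list, 8 were tested, 0 were higher and 4 were lower in edgeR, *Fos*, *Jun*, *Junb* and *Egr1*, and the median log2 fold change of the 8 was -2.85. At an unadjusted p under 0.05 it was 0 higher and 6 lower, and DESeq2 called 0 and 6 and limma 0 and 4. Over all genes, 358 of 4414 had an unadjusted p under 0.05. DESeq2 called 113 higher and 169 lower of 6255, and limma 29 and 55 of 13217. *Junb* was 40.2, 13.8, 27.1 and 98.0 CPM in cluster 13 and 1632, 242, 528 and 1264 CPM in cluster 10 (log2 fold change -4.39, SE 0.42, adjusted p = 2.35e-05). *Egr1* was 0, 6.92, 45.2 and 0 CPM in cluster 13 and 728, 463, 317 and 396 CPM in cluster 10 (log2 fold change -5.93, SE 0.94, adjusted p = 0.00385). For both genes the highest plate of cluster 13 lay below the lowest of cluster 10.

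*Fos*, the gene most used as a sign of recent activity, was 257, 45.0, 226 and 32.7 CPM in cluster 13 and 1551, 511, 614 and 968 CPM in cluster 10 (log2 fold change -3.00, SE 0.47, adjusted p = 0.00351). *Jun* was 134, 79.6, 90.4 and 70.8 CPM in cluster 13 and 412, 602, 479.6 and 511 CPM in cluster 10 (log2 fold change -2.44, SE 0.45, adjusted p = 0.0125, and 0.0764 without JM8). Plate JM5, outside the fit, gave 468 CPM of *Jun* in cluster 13, within the range of cluster 10, and 161 CPM of *Fos*, below it. The summed level of all 30 genes was 327 to 943 CPM in cluster 13 and 2474 to 5817 CPM in cluster 10. The cells were picked after slicing and enzyme treatment, and the part of that handling in these levels was not tested.

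*Fos*, *Cartpt*, *Scg2* and *Junb* are known to respond to cAMP signalling, which can act through the cAMP response element, the 8 letters TGACGTCA. Their upstream sequences, picked after the search described below, are shown because these genes differed in opposite directions, *Cartpt* and *Scg2* being higher in cluster 13 and *Fos* and *Junb* lower. They are RefSeq sequences of mouse build GRCm38.p6, read 5′ to 3′ on the strand of the gene, from base -140 to base -21 before the start of transcription, with the full element or its 5 letters TGACG in capitals.
Cartpt (chr13:99900704-99900823, minus strand): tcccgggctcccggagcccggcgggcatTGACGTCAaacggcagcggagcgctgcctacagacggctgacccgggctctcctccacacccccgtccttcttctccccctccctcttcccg
Scg2 (chr1:79440047-79440166, minus strand): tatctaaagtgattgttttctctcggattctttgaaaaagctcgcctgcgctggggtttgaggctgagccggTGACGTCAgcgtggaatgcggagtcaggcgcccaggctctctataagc
Fos (chr12:85473750-85473869, plus strand): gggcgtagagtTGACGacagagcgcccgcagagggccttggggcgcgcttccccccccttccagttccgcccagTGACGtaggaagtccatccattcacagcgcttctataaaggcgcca
Junb (chr8:84978769-84978888, minus strand): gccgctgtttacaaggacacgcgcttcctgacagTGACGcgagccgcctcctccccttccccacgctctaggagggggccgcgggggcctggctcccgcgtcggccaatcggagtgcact
The full element began at base -112 of *Cartpt* and -68 of *Scg2*. *Fos* held TGACG at -129 and -66 and *Junb* at -106, with no full element in this window. Both strands were searched over 250 bases before to 50 bases after the start, and a full element also counts as TGACG on each strand. Of 32851 promoters in the table, 588 held the full element (1.79%) and 6837 held TGACG (20.8%), and of the 3408 tested genes with an entry 4.69% and 41.5% did. Among the called genes with a promoter entry, 3 of 10 that were higher in cluster 13 held the full element (*Cartpt*, *Scg2* and *Prkar1a*) and 0 of 22 that were lower. TGACG stood in 5 of the 10 and in 8 of the 22, near its share among tested genes. A match of letters is a description and does not show that a factor binds there.

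**Figure D3:**
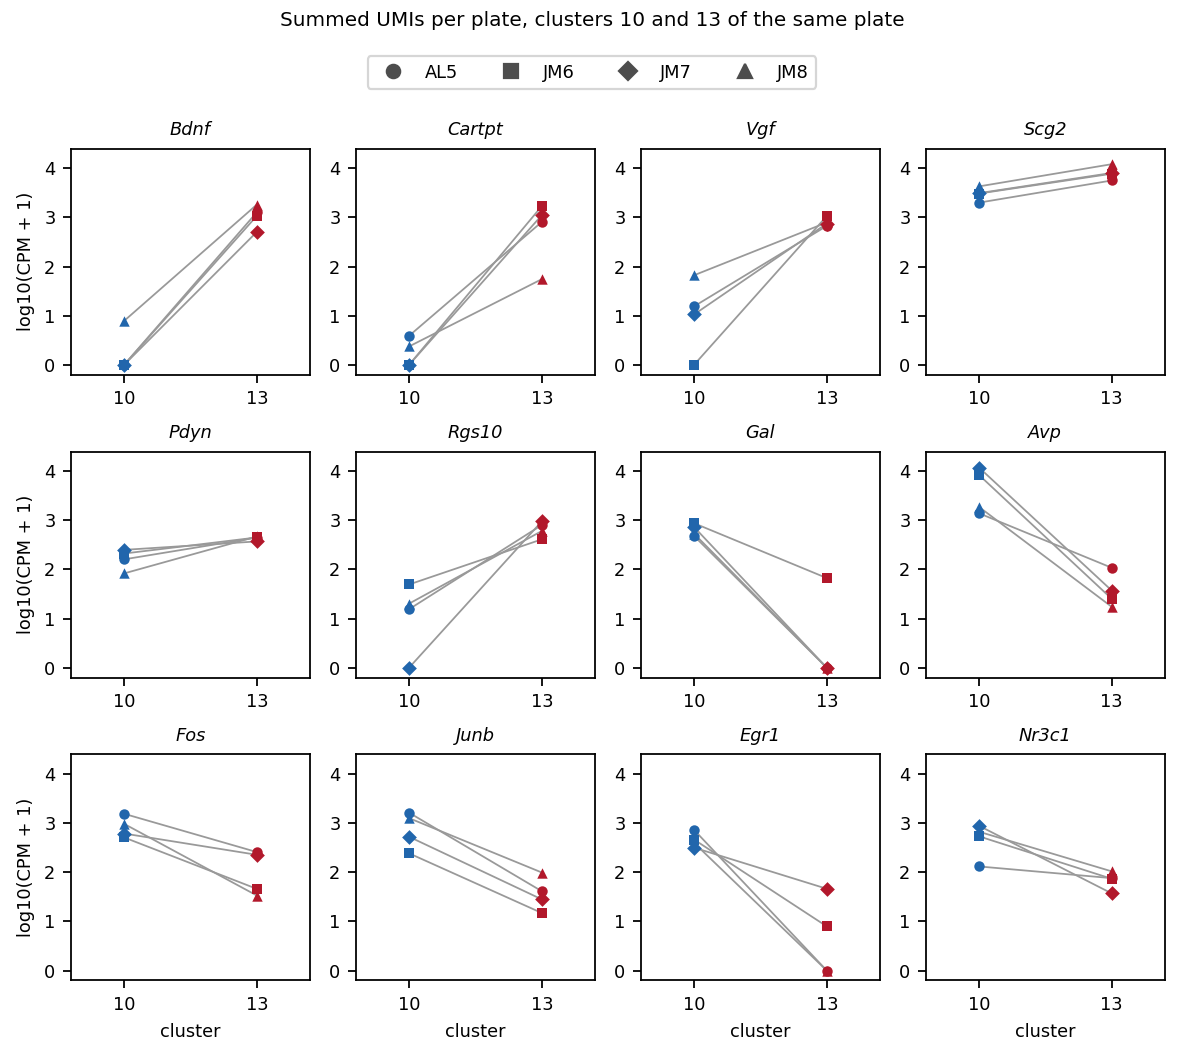
Levels of 12 genes as log10(CPM + 1) of summed UMIs in cluster 10 (blue) and cluster 13 (red), with 1 symbol shape per plate and a line joining both clusters of a plate. *Bdnf*, *Cartpt*, *Vgf*, *Scg2*, *Pdyn* and *Rgs10* were higher in cluster 13 on 4 of 4 plates, and *Gal*, *Avp*, *Fos*, *Junb*, *Egr1* and *Nr3c1* were lower on 4 of 4, with *Pdyn* and *Avp* not past the test.

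Receptors and signalling genes divided the clusters too. Of 66 neuropeptide and hormone receptors, 10 were tested, with 1 higher (*Npy1r*) and 1 lower (*Nr3c1*) and a median log2 fold change of -0.46. *Nr3c1*, the glucocorticoid receptor, was 75.0, 72.7, 36.2 and 103 CPM in cluster 13 and 130.5, 538, 883 and 668 CPM in cluster 10 (log2 fold change -2.65, SE 0.55, adjusted p = 0.0289). AL5 was the plate on which the clusters came closest. The call was lost without JM7 (adjusted p = 0.0655) and without JM8 (adjusted p = 0.142).

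Of 56 genes of glucocorticoid and cAMP response, 27 were tested, 2 were higher and 2 lower, with a median log2 fold change of 0.16. *Rgs10* and *Rgs2* encode regulators that speed the shut-off of G proteins, and they differed in opposite directions. *Rgs10* was 801, 408, 949 and 604 CPM in cluster 13 and 14.5, 48.4, 0 and 19.1 CPM in cluster 10 (log2 fold change 4.98, SE 0.62, adjusted p = 0.000541), and it was found in all 16 cells of cluster 13. It was also found in all 57 cells of cluster 14 (mean 621 CPM), all 35 of cluster 7 (727 CPM) and all 35 of cluster 12 (607 CPM). Cluster 10 had the lowest mean *Rgs10* of the 12 PVH clusters, at 35.5 CPM. Against cluster 14 the log2 fold change of cluster 13 was 0.39 (SE 0.51, adjusted p = 0.848 in edgeR). *Rgs2* was 16.1, 27.7, 189.8 and 114 CPM in cluster 13 and 754, 264, 432 and 729 CPM in cluster 10 (log2 fold change -3.06, SE 0.62, adjusted p = 0.0232). *Prkar1a*, a regulatory subunit of protein kinase A, was 814, 869, 1519 and 827 CPM in cluster 13 and 267 to 489 CPM in cluster 10 (log2 fold change 1.28, SE 0.28, adjusted p = 0.0366). *Rgs2* was not called without AL5 (adjusted p = 0.0973) or JM8 (0.0951), and *Prkar1a* lost its call with any of the 4 plates left out (0.0507 to 0.174).

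Of 32 genes for GABA synthesis, transport and receptors, 12 were tested, with 1 higher (*Gad2*) and 1 lower, and a median log2 fold change of -0.53. The lower was *Gabra2*, a GABA-A receptor subunit, at 48.2, 86.5, 0 and 92.5 CPM in cluster 13 and 255, 1275, 86.3 and 247 CPM in cluster 10 (log2 fold change -2.82, SE 0.60, adjusted p = 0.0355). It was the only called gene whose groups overlapped, since JM7 of cluster 10 lay below 2 plates of cluster 13, and its call was lost without AL5 (adjusted p = 0.0733) or JM6 (0.509). Of 10 tested genes of glutamate synthesis, transport and receptors, 0 passed in edgeR, DESeq2 or limma, and 0 had an unadjusted p under 0.05 (median log2 fold change 0.81).

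Several genes with more general roles also had UMIs in one cluster alone on the shared plates. *S100a10*, *Edil3* and *Asb4* had none in cluster 10. *S100a10*, a calcium-binding family member that helps carry channels to the membrane, was 81.4 to 378 CPM in cluster 13, at least 116-fold higher (adjusted p = 0.0108). *Edil3*, an extracellular matrix protein, was 136 to 245 CPM, at least 91.4-fold higher (adjusted p = 0.017). *Asb4*, a part of a ubiquitin ligase known from hypothalamic feeding neurons, was 54.2 to 321 CPM, at least 97.1-fold higher (adjusted p = 0.0289). None of the 3 was called without AL5 (adjusted p = 0.092, 0.0733 and 0.194) or without JM8 (0.0594, 0.0951 and 0.0944). Off the shared plates the separation was less complete. Cluster 13 on AL6 held 49.0 CPM of *S100a10*, 0 of *Edil3* and 359 CPM of *Asb4*. In cluster 10 over all plates, *S100a10* was found in 12 of 62 cells, with its highest plate at 82.9 CPM. *Edil3* was found in 1 of the 62 and *Asb4* in 3, with highest plates of 20.9 and 18.4 CPM.

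*Ptpn5*, the striatal-enriched phosphatase STEP, was 112 to 463 CPM in cluster 13 and 0 to 19.1 CPM in cluster 10 (log2 fold change 5.33, SE 1.07, adjusted p = 0.0232). *Oxr1* and *Nrip3* were higher by 2.54 and 2.45 on the log2 scale (adjusted p = 0.0401 and 0.016). *Gap43* and *Stmn2*, genes of axon growth, were 1409.8 to 1681 CPM and 1030.5 to 1404 CPM in cluster 13 and 425 to 655 CPM and 258 to 818 CPM in cluster 10 (log2 fold changes 1.46 and 1.31, adjusted p = 0.00484 and 0.0366). *Stmn2* was the only one of 10 tested neuronal markers to pass. Without AL5 the adjusted p of *Ptpn5*, *Oxr1*, *Nrip3* and *Stmn2* was 0.0684, 0.194, 0.112 and 0.218, and without JM8 it was 0.231, 0.141, 0.0594 and 0.174. The calls of *Ptpn5* without JM6 (0.0648) and of *Oxr1* and *Stmn2* without JM7 (0.119 and 0.0516) were lost as well, while *Gap43* stayed called with each plate left out.

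*Cd302*, *Arhgap36* and *Tmcc3* had no UMI in cluster 13 on the shared plates. *Cd302*, a lectin-type receptor, was 687, 242, 163 and 406 CPM in cluster 10, so that it was at least 139-fold lower in cluster 13 (adjusted p = 0.000701). *Arhgap36*, an inhibitor of protein kinase A, was 386, 500.3, 556 and 124 CPM in cluster 10, at least 87.5-fold lower in cluster 13 (adjusted p = 0.000701), and *Tmcc3* was at least 50.4-fold lower (adjusted p = 0.0427). On plate AL6, outside the fit, cluster 13 held 32.7 CPM of *Cd302*, 16.3 CPM of *Arhgap36* and 27.2 CPM of *Tmcc3*, so their absence was not complete. *Cd302* and *Arhgap36* stayed called with each plate left out, and *Tmcc3* did not without AL5 (adjusted p = 0.327) or JM8 (0.0594).

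Other genes lower in cluster 13 were *Tns1*, a link between integrins and the cytoskeleton, *Gpc5*, a cell-surface proteoglycan, *Chl1*, an adhesion molecule, and *Calb1*, the calcium buffer calbindin. *Tns1* was 0 to 5.44 CPM in cluster 13 and 115 to 285 CPM in cluster 10 (adjusted p = 0.0117), and *Gpc5* was 0 to 2.68 CPM and 102 to 259 CPM (adjusted p = 0.0341). *Chl1* was 0 to 24.2 CPM and 194 to 383 CPM (log2 fold change -6.00, SE 1.17, adjusted p = 0.0188). *Calb1* was 198, 208, 316 and 59.9 CPM in cluster 13 and 1029, 1307, 1132 and 807 CPM in cluster 10 (log2 fold change -2.61, SE 0.34, adjusted p = 0.000701), and it stayed called with each plate left out. It was the only one to pass of 27 tested genes in a fixed list of adhesion and synaptic genes. *Tns1*, *Gpc5* and *Chl1* were not in that list. Without AL5, *Tns1*, *Gpc5* and *Chl1* had adjusted p of 0.117, 0.0893 and 0.091, and without JM8 *Gpc5* and *Chl1* had 0.183 and 0.0724, with 0.0849 for *Gpc5* without JM7.

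*Fam159a* and *Mblac2* were lower in cluster 13 too. *Fam159a* was 34.8, 3.46, 127 and 0 CPM in cluster 13 and 554, 301, 374 and 537 CPM in cluster 10 (log2 fold change -4.31, SE 0.85, adjusted p = 0.0201). *Mblac2* was 13.4, 121, 45.2 and 0 CPM in cluster 13 and 273, 446, 566 and 286 CPM in cluster 10 (log2 fold change -3.75, SE 0.76, adjusted p = 0.0232). Neither gene overlapped between the clusters. Both calls were lost without AL5 (adjusted p = 0.0637 and 0.0733) and without JM8 (0.0704 and 0.0594), and that of *Mblac2* also with no plate block (0.0502).

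*Ntng1* and *Reln* belong to the panel of genes by which the study marked its clusters. *Ntng1*, which encodes the axonal adhesion protein netrin-G1, was 91.1, 69.2, 63.3 and 147 CPM in cluster 13 and 5.80, 0, 0 and 1.37 CPM in cluster 10. The groups did not overlap, with 3 UMIs in cluster 10 over the 4 plates, and the difference did not pass in edgeR (adjusted p = 0.206) but did in DESeq2 (adjusted p = 0.00287). *Reln*, the gene of the extracellular matrix protein reelin, was 69.6, 180.0, 9.04 and 43.5 CPM in cluster 13 and 52.2, 0, 0 and 0 CPM in cluster 10, which overlapped (log2 fold change 4.46, SE 2.20, adjusted p = 0.645).

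In the lists of transcription factors, potassium channels, sodium and calcium channels, axon guidance genes and cytosolic ribosomal proteins, 0 of 18, 16, 14, 10 and 47 tested genes passed edgeR's adjusted p, and 7, 6, 2, 3 and 3 had an unadjusted p under 0.05. Of all genes in these lists DESeq2 called 10, 6, 2, 4 and 1 and limma 1, 0, 1, 0 and 1. Over all genes, 358 of 4414 had an unadjusted p under 0.05. DESeq2 called 113 higher and 169 lower of 6255, and limma 29 and 55 of 13217. The median log2 fold changes of the tested genes in these lists were -1.29, -1.71, -0.01, -1.61 and -0.38. *Fezf2*, a transcription factor with the smallest p of its list, was 0 to 5.44 CPM in cluster 13 and 75.4 to 145 CPM in cluster 10 (adjusted p = 0.122). *Kcnip4* and *Kcnd2*, a partner and a subunit of A-type potassium channels, were 0 to 3.46 and 0 to 6.92 CPM in cluster 13 and 46.4 to 297 and 76.7 to 183 CPM in cluster 10 (adjusted p = 0.0777 and 0.0828). All 3 genes were without overlap between the clusters, and each passed in DESeq2 (adjusted p = 0.000667, 0.000219 and 0.000196) and with no plate block (0.0291, 0.0176 and 0.0274).

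Markers of other cells were scarce. No microglial marker of 9 had a UMI in any cell of either cluster, and neither did 10 of 11 vascular and ependymal markers in cluster 13. Of 8 astrocyte markers, 6 had no UMI in cluster 13, among them *Aqp4*, *Gfap* and *Gja1*, and the summed level of the 8 was 99.1 to 260 CPM in cluster 13 and 0 to 180 CPM in cluster 10. *Aldoc*, an enzyme of glycolysis found mostly in astrocytes, made up most of it, at 88.4 to 235 CPM in cluster 13 and 0 to 47.8 CPM in cluster 10 (adjusted p = 0.152, and 0.00044 in DESeq2). Oligodendrocyte markers summed to 0 to 90.4 CPM in cluster 13 and 0 to 127 CPM in cluster 10.

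Cells of cluster 13 had more UMIs than cells of cluster 10 on each shared plate. Mean UMIs per cell were 124449, 72220, 55315 and 91860 in cluster 13 and 68975, 61969, 52123 and 66503 in cluster 10. Genes detected per cell averaged 5109 ± 558 (SD, n = 4 plates) against 4386 ± 211, and UMIs per ERCC UMI averaged 10.9 ± 6.28 against 6.61 ± 3.63. All 3 measures were higher on 4 of 4 plates. An exact two-sided permutation test that swapped the clusters within plates gave p = 0.12 for each, the smallest p that 4 pairs allow, and an adjusted p of 0.167 (Benjamini-Hochberg, 4 measures). The share of UMIs from mitochondrial genes was 2.27 ± 0.18% and 2.09 ± 0.11% (p = 0.25). The part of cell size or capture in the calls above was not tested.

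The Q plates held a different picture of cluster 10 for some of these genes. *Gad2* was found in 14 of its 41 cells there (34.1%, 20.1 to 50.6%), against 1 of 21 on the shared plates. *Cartpt* was found in 20 of the 41, at up to 6317 CPM, and *Bdnf* in 4. *Npy1r* was found in 2 of the 41, both with *Gad2*, at up to 15.2 CPM. With each cell thinned to 50000 UMIs, *Gad2* was found in 12 of the 41 and in 1 of the 21. The Q cells had more UMIs than those on the shared plates (median 149001 against 63337) but fewer genes detected (median 3774 against 4349). Their plates also gave more UMIs per captured molecule. Plate prefix and these measures cannot be told apart.

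When the sums of all PVH clusters and plates were fitted together, so that the Q plates of cluster 10 took part, the log2 fold change of *Gad2* was 4.41 (adjusted p = 0.0645) and that of *Cartpt* 3.69 (adjusted p = 0.0797). *Scg2* did not pass either (log2 fold change 1.06, adjusted p = 0.17), nor did *Nr3c1*, *Calb1*, *Gabra2*, *Asb4* and *Nrip3* (adjusted p = 0.0763, 0.129, 0.132, 0.079 and 0.0608). Of the 45 genes called on the shared plates, 36 passed in this fit, among them *Bdnf*, *Vgf*, *Gal*, *Fos*, *Junb* and *Egr1*.

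Set beside the other PVH clusters, cluster 13 had the highest mean *Gad2* of the 12, at 486 ± 289 CPM (SD over 6 plates), followed by cluster 15 at 146 ± 210 CPM over 9 plates, whose plates reached 660.4 CPM and so overlapped. It also had the highest *Vgf*, at 744 ± 237 CPM, with cluster 9 next at 129 ± 80.6 CPM over 5 plates and no overlap of their plates, the lowest of cluster 13 being 343 CPM and the highest of cluster 9 263 CPM. For *Npy1r* it came after cluster 7, at 127 ± 108 CPM against 140.5 ± 66.4 CPM over 8 plates, which did not differ beyond their spread. For *Bdnf* it came after cluster 9, at 1063 ± 608 CPM against 2504 ± 318 CPM. *Crh* was highest in cluster 10, at 1757 ± 746 CPM over 8 plates, then cluster 13 at 852 ± 923 CPM and cluster 14 at 591 ± 302 CPM over 9 plates, of which 13 and 14 did not differ beyond their spread.

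Of the immediate early genes, cluster 10 had the highest mean *Fos* of the 12 clusters, at 1112 ± 478 CPM over 8 plates, with cluster 8 next at 821 ± 258 CPM over 5. It also had the highest *Junb*, at 755 ± 471 CPM, with cluster 8 next among the PVH clusters at 231 ± 157 CPM.

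**Figure D4:**
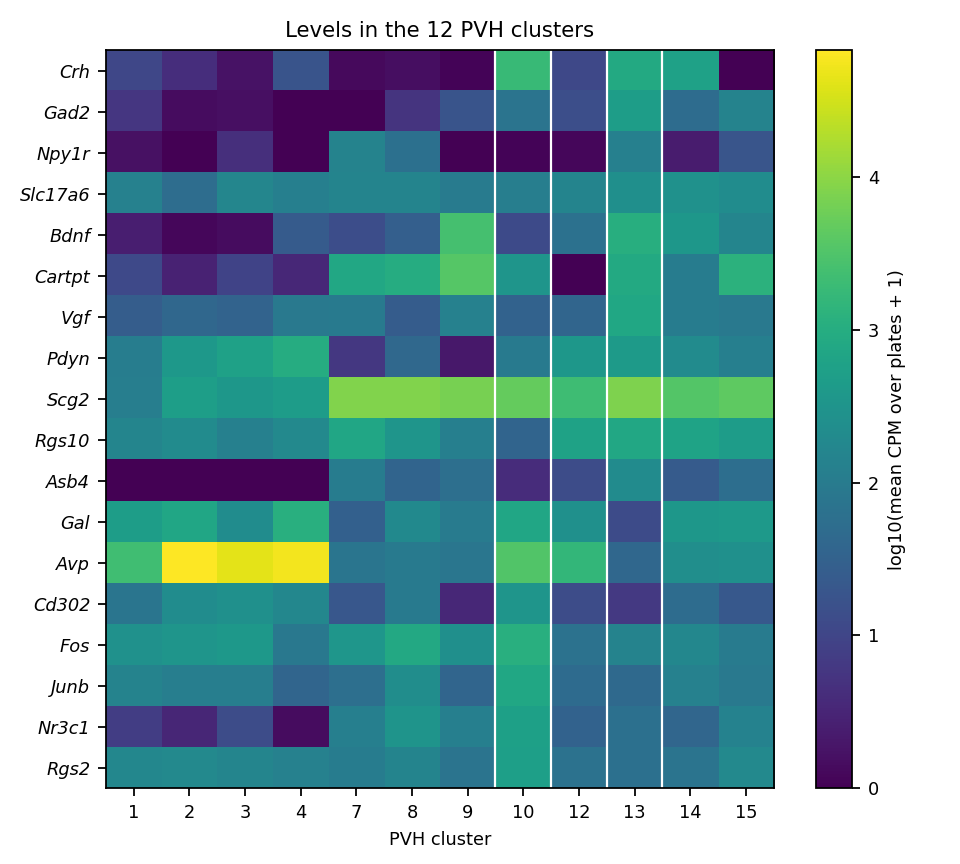
Mean CPM over plates, as log10(mean CPM + 1), of 18 genes (rows) in the 12 PVH clusters (columns), with white lines beside clusters 10 and 13. Cluster 13 is the brightest column for *Gad2*, *Vgf* and *Asb4*, and cluster 10 for *Crh*, *Fos*, *Junb*, *Nr3c1*, *Rgs2* and *Cd302*.

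Cluster 14, in which *Crh* was found in all 57 cells, gave another reference. In a fit of 84 sums over all PVH clusters, with 6 plates holding both, 165 of 11941 genes passed between clusters 13 and 14 (1.38%), 55 higher (0.461%) and 110 lower (0.921%) in cluster 13. With DESeq2's size factors in place of TMM the split was 83 higher and 74 lower. The median log2 fold change over all genes was -0.32 in this fit, so values below are best read against it. Of the 45 genes called against cluster 10, 8 were called here too with the same sign and 0 with the opposite sign, in a comparison that uses the same cells of cluster 13.

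*Gad2*, *Npy1r*, *Cartpt* and *Vgf* were higher than in cluster 14 as well, by 5.19, 6.45, 5.24 and 3.71 on the log2 scale (adjusted p = 0.0124, 0.00154, 0.0073 and 0.00745). *Gal*, *Chl1*, *Pcsk1n* and *Tmsb4x* were the lower 4, with -4.56, -3.85, -0.98 and -0.94. *Bdnf* was 355 ± 394 CPM in cluster 14 over 9 plates and did not pass (log2 fold change 1.94, SE 1.01, adjusted p = 0.386). For *Fos* the log2 fold change against cluster 14 was 0.01 (SE 0.69, adjusted p = 1), and for *Junb* -1.36 (SE 0.91, adjusted p = 0.564). *Sst* passed against cluster 14 (log2 fold change 6.56, SE 1.09, adjusted p = 8.88e-05), and *Penk*, found in 26 of 57 cells of cluster 14, had no UMI in cluster 13 (adjusted p = 0.00327).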

How the data were processed

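The authors deposited unnormalized UMI counts for 48397 genes and 92 ERCC spike-ins in 960 wells of 10 plates, with a table of 706 cells and their cluster numbers. The submitters' processing notes name Trimmomatic 0.36, STAR 2.5.3a and GRCm38.p5, while the gene annotation and the handling of UMI errors are not given in the sources used here. Labels and methods name different sequencers and library kits. The cells were divided into 15 clusters, 12 of them in the PVH.

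Counts were summed per plate and cluster over at least 2 cells, and 8 sums were fitted with edgeR 4.0.16 in R 4.3.3 (two-sided quasi-likelihood F test, plate as a block, TMM, filterByExpr, robust dispersion trend, Benjamini-Hochberg, SE taken as the log2 fold change over the root of F). A gene was called at an adjusted p under 0.05. Same-plate sums correlated at -0.00509 to 0.042 in their deviations from the cluster means, so plate pairs the sums by the design only. CPM was UMIs per 1000000 UMIs of the summed cells, with no pseudocount in tests. DESeq2 1.42.0, which the methods name, and limma 3.58.1 on log2 of mean CPM + 1 were alternatives, as were other filters, normalization, blocks, sums and left-out plates. In simulated data for cluster 13 against 10, 200 genes were changed at each fold. At 8-fold, 145 of them passed the filter and edgeR recovered 101 (69.7% of those tested), with 2 false calls. At 32-fold, 158 passed the filter and all were recovered, with 4 false calls. The simulation gave every gene the same dispersion, so it is no measure of what was missed here. *Avp*, with a pooled ratio of 0.0166, was not called. Shares carry exact Clopper-Pearson 95% intervals, and a count of 0 a limit of 3 counts. Other computing used Python 3.11.15, numpy 2.4.6, pandas 2.3.3, scipy 1.17.1 and matplotlib 3.10.9.

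The members and gene lists were chosen with earlier results of these data known. Genes named were the study's marker panel, the 12 largest called changes in each direction that went the same way on 4 of 4 plates, and of each list the called members or, with none, some of the 2 members with the smallest p. *Gad1*, *Otp*, *Agrp*, *Gap43* and *Tmsb4x* were named after their values were seen. Cluster numbers in the table were used as given, and doublets were not searched for, since cells had been picked singly.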

Additional observations from a re-analysis of the deposited data

Results flagged for a closer look

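Among 52 sets of 4 plate values (22 genes and 4 RNA measures in each cluster), 5 held a plate whose gap to the next was a larger part of the range than Dixon's critical value for 4 values, which chance gives in about 5% of sets. In 3 of the 5 the other 3 plates were at 0, so that any value above 0 stands out and this share does not apply. In cluster 13, *Npy1r* on JM8 (332 CPM) stood above the others (99.4 to 121 CPM), as did *Egr1* on JM7 (45.2 CPM, others 0 to 6.92 CPM) and *Gal* on JM6 (65.8 CPM, others 0). In cluster 10, *Gad2* on AL5 (11.6 CPM) and *Bdnf* on JM8 (6.84 CPM) were the only plates above 0.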

How the results depend on the processing

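All 45 genes called between clusters 13 and 10 kept their direction in each of 11 alternatives. The count of calls was 282 with DESeq2, 76 with no filter on low counts, 246 with all PVH clusters in one fit and 84 with limma, and it ranged from 21 (without JM8) and 24 (without AL5) to 58 over left-out plates. With no replicate block it was 65, of which 41 were among the 45. Sums of at least 3 cells, which drop cluster 13 on JM7 and JM8, kept 31 of the 45, and *Npy1r* (adjusted p = 0.299) and *Nr3c1* (0.561) were lost. No cell was lost by thinning to 50000 UMIs. The share of cluster 10 cells with *Npy1r* went from 3.23% to 0% at a minimum of 3 UMIs. Between clusters 13 and 14 the count was 1179 with DESeq2, 101 with those clusters alone, 71 with sums of at least 3 cells and 446 with limma, and it ranged from 82 (without AL5) to 198 over left-out plates. It was 98 without AL6, 92 without JM5, 103 without JM6 and 93 without JM7. The cause was not tested. With 2 to 4 cells of cluster 13 per plate, 1 cell can set a plate's value.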
